A study of Homo sapiens with 16 samples.

Results

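The response of MDA-MB-231 cells to knockdown of YES1 was examined in 8 libraries, 4 transfected with siYES1 and 4 with siNS, out of 16 in the series. The members were chosen by their labels (cell line and siRNA), not by a measured value. Earlier results of these data were known when the libraries, the gene lists below and the tests were chosen. The series measured polyadenylated RNA in 2 wild-type lines labelled as triple negative breast cancer, MDA-MB-231 and SUM159PT, 48 h after transfection with a lipid reagent. siYES1 is an siRNA against YES1, and siNS is a control siRNA against firefly luciferase, a gene that human cells lack. All groups therefore shared the transfection and differed in the siRNA. How many distinct siRNA sequences siYES1 held, and which, is not stated in the sources at hand, and an effect of YES1 loss and an effect of the siRNA on other transcripts cannot be told apart. The series' title ties YES1 to the centrosome, to chromosomal stability and to drug response. The design text calls the 4 libraries of a group technical replicates, so every p-value below measures only the spread between such libraries.

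MDA-MB-231 is an established human breast cancer line with a mesenchymal, invasive phenotype. Triple negative means that the estrogen receptor (ESR1), the progesterone receptor (PGR) and amplified HER2 (ERBB2) are missing. PGR had no count in any of the 8 libraries, and ESR1 stayed under 1 CPM in all of them. ERBB2 was expressed, at a mean of 119 CPM with siNS and 110 CPM with siYES1, and this change was not called. CPM is a gene's count relative to the total of its library, scaled between libraries by TMM. It is not divided by gene length, so levels are compared only within a gene. The 6 mesenchymal markers (VIM, CD44, AXL, ZEB1, LOX and SPARC) summed to 2513 to 2553 CPM with siNS and to 3109 to 3170 with siYES1. Of these VIM and AXL rose (0.77 and 0.39), LOX and SPARC fell (-0.26 and -1.81) and CD44 and ZEB1 were not called. The 6 luminal epithelial markers were CDH1, EPCAM, GATA3, FOXA1, KRT19 and TFF1. They summed to 914.2 to 1167 CPM with siNS and 554.0 to 603.5 with siYES1, nearly all of it KRT19 (975 and 541 CPM on average). KRT19, EPCAM and GATA3 fell, CDH1 (-0.03) and TFF1 (0.47) were not called, and FOXA1 was not tested. The 5 leukocyte markers summed to 8.57 to 10.3 CPM with siNS and 2.51 to 4.00 with siYES1. Of these, 3 were under 1 CPM in every library, 1 of them at 0. The other 2 moved in opposite directions, as CD14 fell (-2.11, from 8.39 to 1.93 CPM) and LYZ rose (1.45, from 0.465 to 1.31 CPM). The 4 endothelial markers summed to 7.47 to 12.6 and 4.63 to 7.08 CPM, and the 8 fibroblast markers to 30.0 to 35.7 and 14.4 to 15.9 CPM, with 2 and 5 of them under 1 CPM throughout. Their part in any result was not tested.

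Depth was 17275665 to 21158617 counts per library with siNS and 15863961 to 17480995 with siYES1. The first principal component of log2 CPM took 67.8% of the variance and separated the siRNAs. The second took 9.36% and set siNS replicates 1 and 2 (14.5 and 20.9) apart from siNS replicates 3 and 4 (-17.1 and -18.6), with the siYES1 libraries between them. Mitochondrial transcripts made up 1.94% and 1.71% of counts in siNS replicates 1 and 2, 1.34% and 1.26% in replicates 3 and 4, and 1.45% to 1.79% with siYES1. No batch is named in the labels.

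YES1 belongs to the Src family of non-receptor tyrosine kinases, which sit at the inner face of the cell membrane and pass signals from integrins and growth factor receptors to the cytoskeleton, the ERK pathway and transcription. The kinase CSK switches them off by phosphorylating their tail, on membranes with help from its anchor PAG1, and the phosphatases PTPRA and PTPN1 remove that mark. YES1 is expressed widely, also in epithelial cancers, and shares substrates with SRC and FYN.

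YES1 (GRCh38, chromosome 18, 721588 to 812546, minus strand) was measured at 71.4, 57.1, 63.8 and 60.3 CPM in siNS replicates 1 to 4 and at 13.5, 14.5, 14.3 and 12.7 CPM in siYES1 replicates 1 to 4. Every siYES1 library lay below every siNS library, and the spread within siYES1 was under 2 CPM. The log2 fold change was -2.20 ± 0.09 (SE; edgeR quasi-likelihood test, Benjamini-Hochberg adjusted p = 5.25e-11).

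Across all genes, 7503 of 14319 tested genes were called at an adjusted p under 0.05, which is 52.4%. Of the tested genes 24.9% rose (3570) and 27.5% fell (3933), and in 47.1% both sets of 4 libraries stood clear of each other. Each count of a gene group below is read against these shares. Wherever the values of all 8 libraries of a gene are printed, the siYES1 libraries lay wholly on one side of the siNS libraries, except for MCM6 and MT-ND2, whose groups overlapped. Most of the changes were small: 4020 called genes (53.6% of those called) changed by less than 1.5-fold, 450 rose by 2-fold or more and 1012 fell by 2-fold or more. The median log2 fold change of all tested genes was 0.00, against which the group medians below stand. Genes with few reads fell more often than they rose. Under 1 CPM 9.84% rose and 20.3% fell, whereas over 100 CPM 34.7% rose and 23.3% fell. Without siNS replicates 1 and 2, 8335 of 14756 tested genes were called, 4116 rising and 4219 falling, and without siNS replicates 3 and 4 it was 7338 of 14754, 3549 rising and 3789 falling. A joint fit of all 16 libraries called 2230 as risen and 3668 as fallen, so that 37.8% of its calls were rises against 47.6% here.

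**Figure D1:**
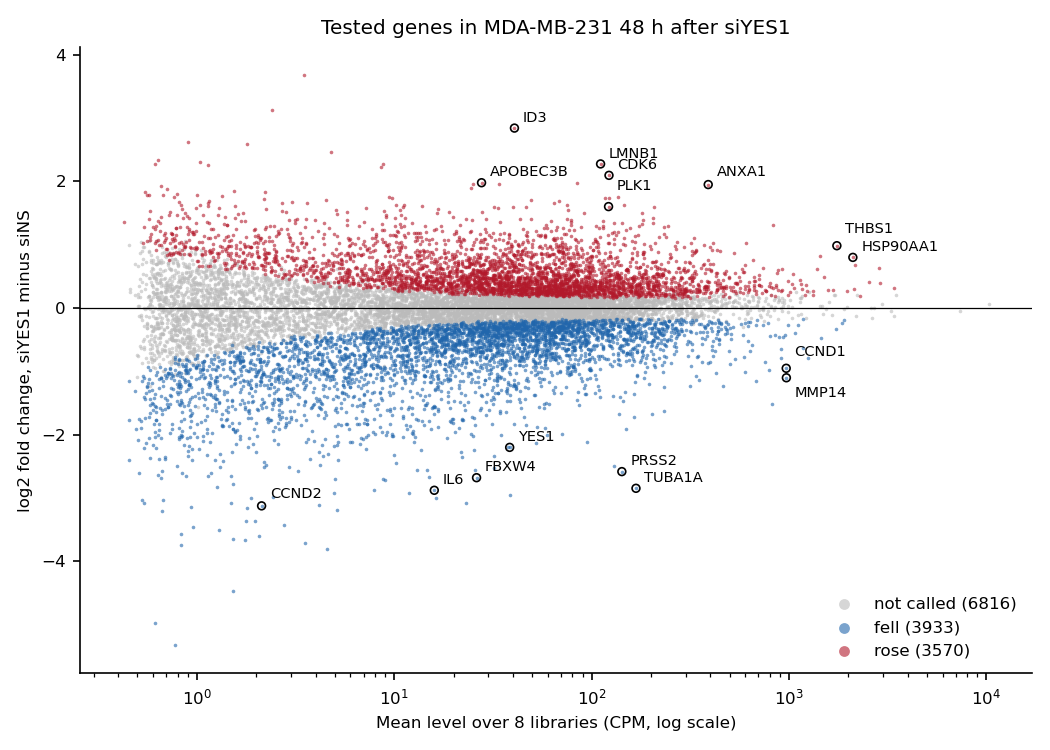
Mean level of each tested gene over the 8 MDA-MB-231 libraries (CPM, log scale) against its log2 fold change, siYES1 minus siNS. Red points rose (3570), blue points fell (3933) and grey points were not called (6816); the circled genes are described in the text.

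Promoters of genes that moved are shown first, because several groups below share short sequence elements. The genes shown were picked together with the motif marked in each, so a match in every window was set by that choice. Genes of G2 and mitosis are known to carry a cell cycle homology region (CHR, TTTGAA) near the start of transcription, bound by the MuvB complexes DREAM and B-MYB-FOXM1, often with CCAAT boxes (CCAAT) bound by NF-Y. Genes of S phase carry E2F sites, and many growth-factor and cytokine targets carry AP-1 sites (TGACTCA), bound by JUN and FOS proteins. The windows below are the 120 bases before the RefSeq start of transcription (GRCh38.p14), printed 5′ to 3′ on the strand of the gene, and capitals mark a match on either strand. In the first 4, all genes of mitosis that rose, capitals mark the CHR and CCAAT boxes.
PLK1 (chr16:23678769-23678888, plus strand): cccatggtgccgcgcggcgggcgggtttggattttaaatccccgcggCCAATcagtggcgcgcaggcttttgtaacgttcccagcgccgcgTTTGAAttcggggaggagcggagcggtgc
CCNB2 (chr15:59105026-59105145, plus strand): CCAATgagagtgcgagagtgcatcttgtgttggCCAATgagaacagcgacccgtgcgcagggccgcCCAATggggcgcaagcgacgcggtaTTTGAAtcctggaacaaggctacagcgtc
KIF11 (chr10:92593010-92593129, plus strand): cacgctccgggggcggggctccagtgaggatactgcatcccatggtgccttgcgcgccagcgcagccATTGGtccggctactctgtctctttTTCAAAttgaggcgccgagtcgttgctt
ESPL1 (chr12:53268179-53268298, plus strand): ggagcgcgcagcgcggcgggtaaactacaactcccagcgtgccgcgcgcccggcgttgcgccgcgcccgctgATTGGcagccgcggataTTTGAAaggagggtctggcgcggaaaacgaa

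The CHR began 29, 29, 28 and 31 bases before the start of PLK1, CCNB2, KIF11 and ESPL1, and each window held at least 1 CCAAT box further upstream, CCNB2 3 of them. In the next pair, replication genes that rose, capitals mark an E2F site, searched as TTTCCCGC, TTTGGCGC, TTTCGCGC or TTTGCCGC.
CDT1 (chr16:88803669-88803788, plus strand): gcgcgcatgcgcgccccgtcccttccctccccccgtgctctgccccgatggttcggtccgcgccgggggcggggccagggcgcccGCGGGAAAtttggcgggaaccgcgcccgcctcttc
GINS2 (chr16:85688955-85689074, minus strand): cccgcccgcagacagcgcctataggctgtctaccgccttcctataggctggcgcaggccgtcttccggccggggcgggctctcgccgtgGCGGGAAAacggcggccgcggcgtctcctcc

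The E2F match began 35 bases before the start in CDT1 and 31 in GINS2. In the last pair, secreted products whose transcripts fell, capitals mark AP-1 sites.
IL11 (chr19:55370464-55370583, minus strand): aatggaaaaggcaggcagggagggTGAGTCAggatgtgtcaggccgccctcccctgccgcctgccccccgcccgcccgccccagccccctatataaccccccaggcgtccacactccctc
CPA4 (chr7:130293041-130293160, plus strand): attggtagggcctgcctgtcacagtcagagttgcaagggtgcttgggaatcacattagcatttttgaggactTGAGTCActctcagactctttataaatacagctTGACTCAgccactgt

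Of 12477 tested coding genes 9924 had a promoter in the RefSeq table, read from 250 bases before to 50 after the start. All motifs were searched on both strands, and those of different names may overlap. The CHR letters were present in 62 of 272 genes that rose by 2-fold or more (22.8%), in 8.66% of 635 that fell by 2-fold or more, in 9.52% of all tested coding genes and in 15.4% of all 27305 promoters. CCAAT was present in 51.5%, 28.8%, 36.4% and 35.7% of the same sets, the E2F letters in 8.09%, 3.31%, 5.40% and 3.33%, and the AP-1 letters in 0.368% (1 gene), 6.14%, 3.12% and 4.92%. An ETS core (CCGGAAG) was present in 20.6% of the genes that rose by 2-fold or more and in 4.57% of those that fell by 2-fold or more, against 19.5% of tested coding genes. Over all 2656 genes that rose, of any size, the CHR was present in 12.7%. Among the G2/M cyclins and mitotic kinases with a promoter in the table, 6 of 15 held the CHR and 10 of 15 a CCAAT box, among the mitotic kinesins 9 of 13 and 10 of 13, and among the cohesin and condensin genes 7 of 17 and 7 of 17. Of the replication genes 1 of 28 held the CHR and 16 of 28 an E2F match. The AP-1 letters were present in 2 of 22 matrix and protease genes and in 3 of 19 NF-kB factors, cytokines and chemokines. These shares describe letters in a window and were not tested.

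Genes that drive entry into mitosis stood higher with siYES1. All 20 tested G2/M cyclins and mitotic kinases rose (median log2 fold change 0.95), and in all 20 the groups of libraries did not overlap. PLK1, the kinase that matures centrosomes and drives mitotic entry, was at 60.9, 61.6, 64 and 55 CPM with siNS and at 179, 192, 174 and 188 CPM with siYES1. It rose by 1.60 ± 0.07 (edgeR adjusted p = 8.91e-11). WEE1, which holds CDK1 inactive, rose by as much (1.60 ± 0.10, 23.2 ± 2.91 to 70.3 ± 4.94 CPM, mean ± SD, n = 4), and PKMYT1, which does the same at membranes, by 1.15 ± 0.15. PKMYT1 was among the genes that divided the control libraries, at 23.6, 28, 45.8 and 40.1 CPM with siNS and 74.9, 76.4, 77 and 75.1 CPM with siYES1. Both inhibitors of CDK1 and its activators thus rose. CDK1 itself rose by 0.59, cyclin A2 (CCNA2) by 1.16, cyclin B2 (CCNB2) by 0.90, and the activating phosphatase CDC25B by 0.25, the smallest rise of the list. NEK2, which splits the paired centrosomes, rose by 1.41 and the histone H3 kinase HASPIN by 1.20. Bulk RNA cannot tell a higher level in every cell from a larger share of cells in that phase of the cycle.

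The motors, adaptors and ring proteins of the later steps moved with them. All 13 mitotic kinesins rose (median 0.96), from KIF22, which pushes chromosome arms (0.59), to the minus-end motor KIFC1, which gathers extra centrosomes at the spindle poles (1.33). KIFC1 was at 93.3, 97.5, 123 and 95.6 CPM with siNS and 256, 257, 247 and 269 CPM with siYES1, with no overlap although siNS replicate 3 stood above the other siNS libraries. KIF11, the motor that separates the spindle poles, rose by 1.09 and KIF18B, which shortens microtubules, by 1.15. Of 21 genes of the anaphase-promoting complex, its adaptors and substrates, 12 rose, 1 fell and 8 were not called (median 0.37), with 2 falling in the joint fit, with library totals and without siNS replicate 1. The adaptor CDC20, the ubiquitin carrier UBE2C and securin (PTTG1) each rose by 1.13, and separase (ESPL1), which securin holds in check, by 0.83. Among the subunits of the core, CDC23 rose by 1.11 and CDC27 by 0.87, and CDC26 fell by 0.60 (edgeR adjusted p = 0.00087). For cytokinesis, RACGAP1 of centralspindlin rose by 1.38, the exchange factor ECT2 by 1.11 and the ring scaffold anillin (ANLN) by 1.11.

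Condensin genes rose, and genes of the cohesin cycle were divided, with 3 of them falling. Among those that rose were SMC1A (0.47) and ESCO2 (1.13). Of 21 tested genes 17 rose, 3 fell and 1 was not called (median 0.56). The condensin subunits that compact mitotic chromosomes led the rises, with NCAPG at 1.29, NCAPD2 at 1.28 and SMC4 at 1.16 log2 units. NCAPD2 was measured at 131, 126, 156 and 128 CPM with siNS and 344, 333, 318 and 319.6 CPM with siYES1. Those that fell were STAG2, ESCO1 and MAU2. STAG2, a subunit of the ring, fell by 0.46 ± 0.09, ESCO1, the acetyltransferase that acts on cohesin outside S phase, fell by 0.56 ± 0.10, and the loader subunit MAU2 fell by 0.27 ± 0.08 (edgeR adjusted p = 0.0146). STAG2 was at 121, 93.2, 95.4 and 95.3 CPM with siNS and 73.6, 76.1, 72.4 and 73.1 with siYES1, and the groups did not overlap. The call of MAU2, whose groups overlap, ended without siYES1 replicate 1 (adjusted p = 0.0509), without siYES1 replicate 4 (0.0504) and without siNS replicates 3 and 4 (0.156).

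Of 34 tested genes of the centriole and centrosome 25 rose, 2 fell and 7 were not called (median 0.41), with 4 falling without siNS replicate 4 and 5 without siNS replicates 3 and 4. CEP55, which guides the final cut between daughter cells, rose by 1.26, and CEP85 and CEP97, which set when centrioles are copied or capped, by 1.07 and 0.93. CEP85 was at 33.3, 27.8, 31.4 and 28.7 CPM with siNS and 66.1, 63.4, 59 and 66.6 CPM with siYES1, with no overlap. The ring complex that nucleates microtubules divided, as TUBGCP3 rose by 0.69 and TUBGCP2 fell by 0.58 (from 241 to 161 CPM). NINL, an anchor of that complex in interphase, fell by 0.89 ± 0.11. SPICE1 was listed but not tested.

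The G1 machinery had no single direction. Of 13 tested G1 cyclins, their kinases and inhibitors, 8 rose, 3 fell and 2 were not called (median 0.30), and 5 rose in the joint fit of 16 libraries. The kinases rose: CDK6 from 55.5, 38.7, 47.1 and 44.3 CPM to 214, 209.8, 189 and 182 CPM (2.10 ± 0.10), CDK2 by 1.60 and CDK4 by 0.91. The D cyclins that activate CDK4 and CDK6 fell or were not called. CCND1, the main D cyclin of breast cancer cells, was at 1272, 1269.5, 1259 and 1305 CPM with siNS and 688, 655, 656 and 645 CPM with siYES1. The groups lay far apart beside their spread, and the log2 fold change was -0.95 ± 0.06 (edgeR adjusted p = 4.44e-09). CCND2 fell by 3.12 ± 0.33 from a low level (3.83 to 0.431 CPM), and CCND3 was not called (0.03 ± 0.07). Of the E cyclins that act with CDK2, CCNE2 rose by 0.75 and CCNE1 was not called (-0.02 ± 0.09). The inhibitors CDKN2C (p18) and CDKN1B (p27) rose by 0.80 and 0.30, the latter without a call in the joint fit of 16 libraries (adjusted p = 0.137), and CDKN1C (p57) fell by 0.92 (edgeR adjusted p = 1.29e-05). CDK2 and CDK4 share 16.8% and 43.2% of their exon bases with other genes of the annotation, so their counts are less certain. The same holds for CCNE2 (37.1%), NCAPG (33.1%), SMC4 (25.6%) and TUBA1B (36.6%), and, among genes described further on, for BCL2L1 (43%), DUSP6 (40.5%), IFITM1 (32.5%), HLA-F (28.5%), WIPI1 (28.1%), AXIN2 (25.2%), VIM (24.4%), APOBEC3B (23.3%) and IL6 (20.7%).

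**Figure D2:**
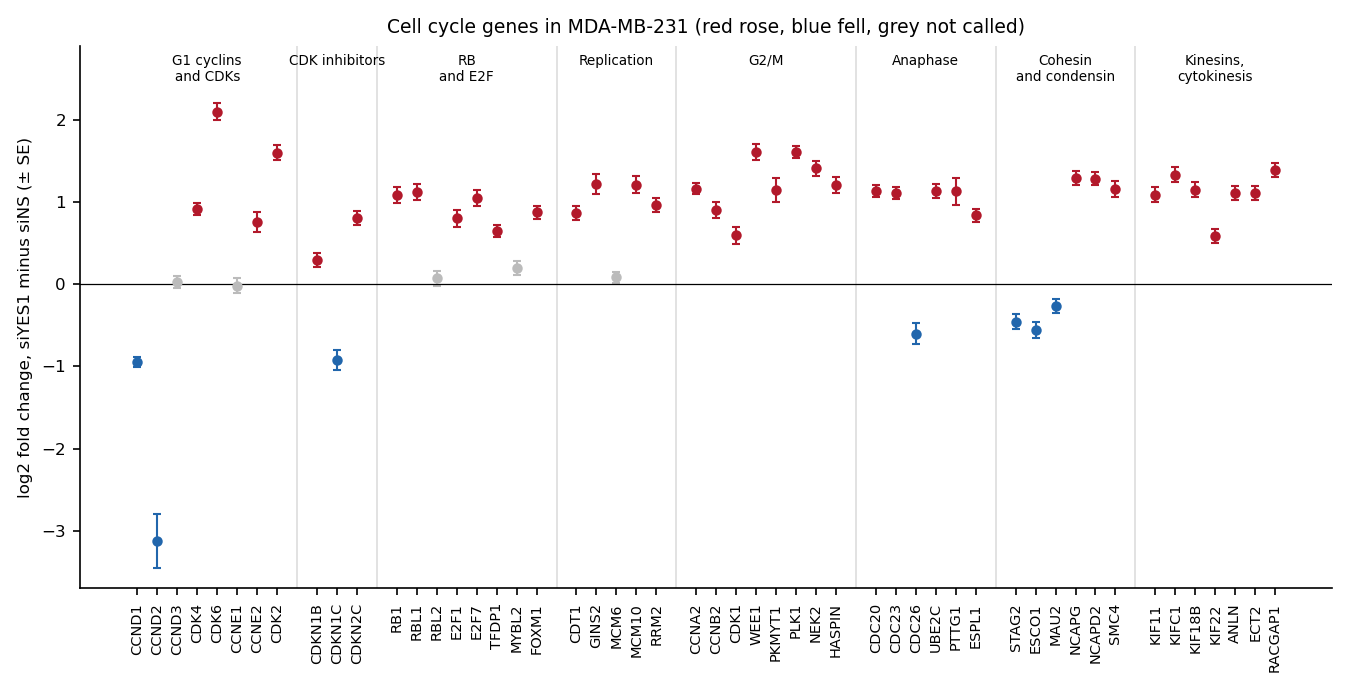
Log2 fold change (siYES1 minus siNS, ± SE derived from the edgeR test) of cell cycle genes in MDA-MB-231, ordered by role. Red rose, blue fell, grey was not called. CDK6 stands highest at 2.10 and CCND2 lowest at -3.12, and every G2/M, anaphase and kinesin gene drawn lies above 0 except CDC26.

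Repressors and activators among the E2F partners rose side by side. Of 19 tested E2F, pocket and MuvB genes 12 rose (8 in the joint fit), 0 fell and 7 were not called (median 0.39), with 1 falling without siNS replicate 4. The pocket proteins RB1 and RBL1 (p107), which hold E2F factors silent, rose by 1.08 and 1.12, while RBL2 (p130) was not called (0.07 ± 0.09). RB1 was at 49.6, 37.5, 41.7 and 36.5 CPM with siNS and 84.8, 86.7, 88 and 90.8 CPM with siYES1. The activator E2F1 rose by 0.80, the repressor E2F7 by 1.05 and their dimer partner TFDP1 by 0.65. FOXM1 rose by 0.87. B-MYB (MYBL2) was not called (0.19 ± 0.09, adjusted p = 0.0761), and leaving out siNS replicate 2 gave it a call (0.27, adjusted p = 0.01), as did leaving out siNS replicates 1 and 2 (0.24, adjusted p = 0.00675).

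Replication genes rose almost without exception, 31 of 32 tested (22 in the joint fit), with 0 falling and a median of 0.77. The exception was the helicase subunit MCM6 (0.08 ± 0.07), at 98.8, 99.5, 103 and 99.3 CPM with siNS and 103, 108, 106 and 108 CPM with siYES1. MCM10, which starts forks from the helicase, rose by 1.21 and GINS2, a part of the active helicase, by 1.21. The licensing factor CDT1 rose by 0.86 ± 0.08 (45.2 ± 4.56 to 82.1 ± 4.27 CPM), and RRM2, which makes deoxynucleotides, by 0.96.

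The enzymes that copy DNA methylation at the fork rose, and DNMT3A and TET2, which set and erase it, fell. Of 17 tested chromatin genes 10 rose, 4 fell and 3 were not called (median 0.61). UHRF1, which brings the maintenance methylase to the fork, rose by 1.30 ± 0.13, the methylase DNMT1 by 0.70 and the polycomb methyltransferase EZH2 by 0.77. UHRF1 was at 85.7, 75.6, 132 and 109.6 CPM with siNS and 266, 268, 224 and 229.6 CPM with siYES1, another gene on which siNS replicates 1 and 2 lay below 3 and 4. The new-site methylase DNMT3A fell by 0.78 (edgeR adjusted p = 6.13e-05) and the demethylase TET2 by 0.50 (adjusted p = 0.00431), TET2 with overlapping groups. The DNA-bending protein HMGB2 rose by 1.34, from 80.7 to 205 CPM.

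Structural genes of the nuclear rim also moved. Of 14 tested lamins and inner membrane proteins 8 rose, 3 fell and 3 were not called (median 0.33), with 1 falling without siYES1 replicate 3 or 4. LMNB1, a B-type lamin, was measured at 38.6, 33.2, 47.6 and 32.7 CPM with siNS and 186, 183, 188 and 179.5 CPM with siYES1. At 2.28 ± 0.10 it was the second largest rise among coding genes that reached a mean of 5 CPM without overlap of the groups. The lamina-bound TMPO (LAP2) rose by 1.35, LMNB2 by 0.87 and LMNA by 0.62, whereas the lamin B receptor LBR fell by 0.87 (from 106 to 57.7 CPM).

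Tubulins had no common direction: of 19 tested tubulin and stathmin genes 8 rose, 7 fell and 4 were not called (median -0.10). The number risen was 4 in the joint fit, 5 with library totals and 5 without siYES1 replicate 2 or 4, and the number fallen was 3 without siNS replicates 3 and 4. The alpha-tubulins TUBA1A and TUBA1B moved in opposite directions. TUBA1A was at 307, 349, 251 and 272 CPM with siNS and 40.4, 40.5, 42 and 41.3 CPM with siYES1, a fall of 2.84 log2 units, and TUBA1B rose by 0.68. These copies are nearly identical in sequence, so how reads were divided between them is uncertain. The microtubule-destabilizing stathmin STMN3 fell by 0.96. STMN1 rose by 0.38 with overlapping groups, a call that ended without siNS replicates 3 and 4 (adjusted p = 0.167) and in the joint fit of 16 libraries (0.0807).

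**Figure D3:**
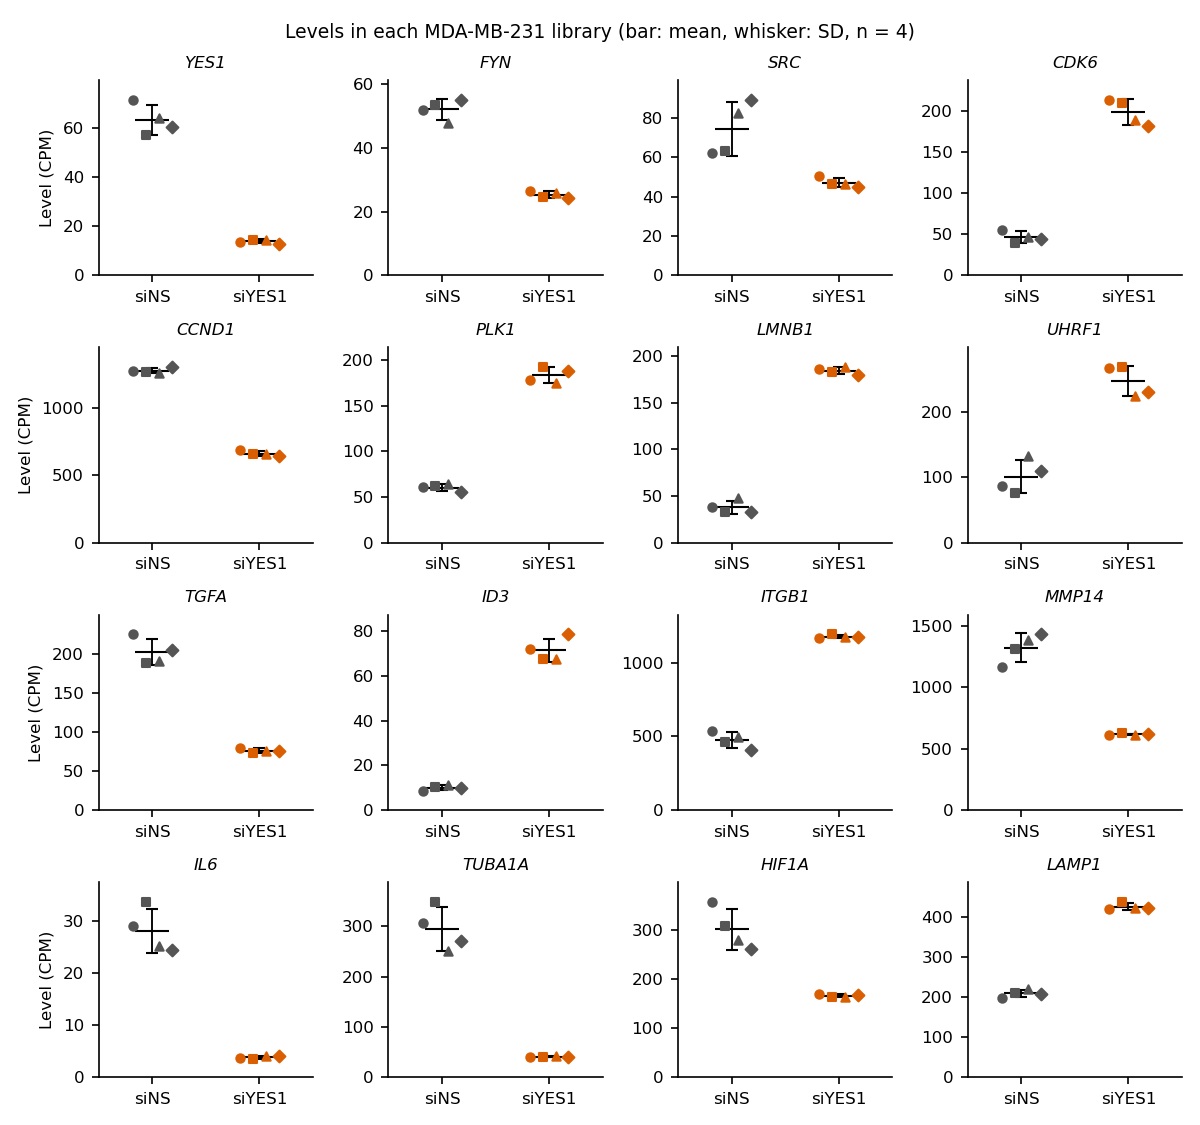
Levels (CPM, linear axis from 0) of 16 genes in each MDA-MB-231 library, siNS in grey and siYES1 in orange; circle, square, triangle and diamond are replicates 1 to 4, the bar is the mean and the whisker the SD (n = 4). In none of the 16 genes do the groups overlap, and CCND1 falls while CDK6 and PLK1 rise.

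Genes of the family of YES1 and its regulators changed as well. Of 9 tested genes (YES1 left out), 2 rose, 5 fell and 2 were not called (median -0.23; 1 rose in the joint fit), and 4 further members had too few counts to test. FYN was at 52.1, 53.4, 47.7 and 55.2 CPM with siNS and 26.6, 24.7, 25.7 and 24.2 CPM with siYES1, a fall of 1.04 ± 0.08 with no overlap. SRC was at 62.4, 63.1, 82.4 and 89.3 CPM with siNS, replicates 1 and 2 below 3 and 4, and at 50.4, 46.5, 46.4 and 44.9 CPM with siYES1 (log2 fold change -0.66 ± 0.11). LYN fell by 0.34 and the activating phosphatase PTPRA by 0.82 (175 to 99.4 CPM). The phosphatase PTPN1 fell by 0.17 (edgeR adjusted p = 0.0483). PAG1 and CSK, which act against the family, rose by 0.80 and 0.24 (edgeR adjusted p = 0.0096 for CSK). CSK was no longer called in the joint fit of 16 libraries (adjusted p = 0.151). CBL (0.21 ± 0.12) and FRK (-0.23 ± 0.30) were not called.

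Receptors and ligands of the EGFR family, which signal through Src kinases, fell or were not called. Of 11 tested, 7 fell, 0 rose and 4 were not called (median -0.53), with 1 rising without siNS replicate 1. The receptor EGFR fell by 0.53 ± 0.09, from 436, 316, 372 and 367 CPM to 281, 276, 241 and 231 CPM. TGFA, an EGFR ligand, fell by 1.41 ± 0.08 (202 ± 16.8 to 76.1 ± 2.75 CPM, mean ± SD, n = 4), the ligand HBEGF by 0.48 and NRG1, a ligand of ERBB3, by 0.81. ERBB3 itself fell by 0.80 from 7.26 CPM. AREG, another EGFR ligand, was not called (0.07 ± 0.07). Of 17 other receptor tyrosine kinases 5 rose and 6 fell, close to the background shares, with a median of -0.17 that turned to 0.07 without siNS replicates 3 and 4. PDGFRB fell by 1.94 and EPHB2 by 0.83, MET, the receptor of hepatocyte growth factor, fell by 0.31, and ROR1 rose by 0.75.

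Among genes that ERK signalling induces as feedback, falls outnumbered rises, with exceptions among the Sprouty genes. Of 19 tested, 10 fell, 6 rose and 3 were not called (median -0.36). The ERK phosphatases DUSP5, DUSP6 and DUSP4 fell by 0.92, 0.42 and 0.36, and the RAS-ERK inhibitor SPRED3 fell by 1.75. DUSP5 was at 147, 172, 157 and 186 CPM with siNS and 86.1, 88.4, 88.8 and 86.3 CPM with siYES1. SPRY4 and SPRY1, inhibitors of receptor signalling, rose by 0.80 and 0.64, and the ETS factor ETV5 was not called (0.14, adjusted p = 0.117), a call it gained when siNS replicates 1 and 2 were left out (0.21, adjusted p = 0.00811). Of 17 AP-1, EGR and MYC factors 2 rose, 3 fell and 12 were not called (median -0.05). These counts were unstable, at 1 risen and 7 fallen without siNS replicates 1 and 2, 6 risen without siNS replicates 3 and 4, 1 risen without any 1 of siNS replicates 1 and 2 and siYES1 replicates 1 to 3, and 1 risen and 5 fallen with library totals. JUND fell by 0.68 and JUN by 0.40, and FOSL1, the main FOS protein of mesenchymal breast cancer lines, rose by 0.33. MYC was not called (-0.15 ± 0.07, adjusted p = 0.0658), although its groups did not overlap, and it was called with library totals as the scaling (-0.20, adjusted p = 0.021), without siNS replicates 1 and 2 (-0.15, adjusted p = 0.0406) and in the joint fit (-0.21, adjusted p = 0.0263). Of 15 Kruppel-like and SP factors 7 rose and 1 fell (2 without siNS replicate 2 or 3), with KLF2 at 1.37 (19.2 to 49.5 CPM) and KLF4 at 0.80.

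The ID proteins, which block basic helix-loop-helix factors and are classic targets of BMP receptors, included the largest rise of any coding gene that averaged at least 5 CPM, ID3. It was measured at 8.66, 10.5, 11 and 9.74 CPM with siNS and 71.9, 67.7, 67.3 and 78.5 CPM with siYES1. The siYES1 libraries all lay far above the siNS libraries, and the log2 fold change was 2.84 ± 0.10 (edgeR adjusted p = 8.02e-12). ID1 rose by 1.97, ID2 by 1.53 and ATOH8, a further BMP target, by 2.27. The secreted BMP blocker noggin (NOG) fell by 1.99, from 85.5, 105, 122 and 143 CPM to 27.3, 29.1, 28.1 and 29.7 CPM. The ligand BMP4 fell by 0.37 and TGFB1 by 1.01. Of the BMP-activated SMADs, SMAD5 rose by 0.80 and SMAD1 fell by 1.09. Over the 24 tested genes of this list 9 rose, 7 fell and 8 were not called (median -0.08), so the list as a whole had no direction.

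Hippo and Notch genes changed in part. Of 24 tested genes of YAP, TAZ, TEADs and their targets 11 rose, 3 fell and 10 were not called (median 0.17), with 5 falling without siNS replicates 3 and 4. The DNA-binding factor TEAD1 rose by 1.49 (94.2 to 265 CPM), its coactivator YAP1 by 0.65 and the kinase cofactor MOB1A, which acts against YAP, by 1.19. The targets CTGF (CCN2) and CYR61 (CCN1) rose by 0.64 and 0.34, AMOTL2 fell by 0.70, and ANKRD1 was not called (-0.13 ± 0.12; -0.36 and adjusted p = 0.00277 without siNS replicates 3 and 4). CTGF lost its call in the joint fit of 16 libraries (adjusted p = 0.0522). Of 25 Notch and Wnt genes 7 rose and 8 fell, near the background, and 3 rose in the joint fit. NOTCH1 rose by 1.06 and NOTCH2 by 0.61, the Notch ligand DLL1 fell by 1.48, the ligand WNT7B by 1.33 (210.4 to 83.7 CPM) and the Wnt target AXIN2 by 0.80.

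Adhesion genes changed member by member. Of 27 tested integrin and focal adhesion genes 10 rose, 9 fell and 8 were not called (median -0.02). ITGB1, the beta subunit shared by most integrins of these cells, was at 535, 459, 498 and 409 CPM with siNS and 1170.2, 1193, 1171 and 1176 CPM with siYES1, a rise of 1.31 ± 0.08. ITGB4, which pairs with alpha 6 at hemidesmosomes, fell by 0.41, ITGB8 by 1.96 and the adaptor TNS3, a Src substrate, by 0.78. LIMS1 (PINCH1) rose by 0.89 and its partner ILK by 1.35, but ILK shares 78.5% of its exon bases with other genes.

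Several epithelial genes that these mesenchymal cells still express fell. Of 27 tested junction and keratin genes 11 fell, 6 rose and 10 were not called (median -0.26). The keratins KRT19 and KRT7 fell by 0.85 and 0.89, KRT19 from 863, 1104, 951 and 984 CPM to 536, 541, 566 and 520.2 CPM. The adhesion molecule EPCAM fell by 0.88, the tight junction protein occludin (OCLN) by 1.35, the surface protease matriptase (ST14) by 1.34 and its inhibitor SPINT1 by 2.66 (25.9 to 4.09 CPM). The mesenchymal filament vimentin (VIM) rose by 0.77 and the cadherins CDH11 and CDH4 fell by 0.67 and 1.01, within an EMT list of 12 in which 2 rose and 3 fell. The 2 became 1 in the joint fit, with library totals and without siNS replicate 2 or 4 or siYES1 replicate 1 or 2, and 4 without siNS replicates 1 and 2.

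Many matrix and proteolysis genes fell. Of 30 tested, 17 fell, 6 rose and 7 were not called (median -0.33). MMP14, the membrane collagenase of invasive cells, was measured at 1163, 1311, 1387 and 1432 CPM with siNS and 614, 624, 615 and 617 CPM with siYES1, a fall of 1.10 ± 0.07 (edgeR adjusted p = 4.60e-09). MMP9 fell by 3.20 (1.2 to 0.124 CPM), the urokinase PLAU by 0.67 and its receptor PLAUR by 0.82. The fibrillar collagen COL5A1 fell by 1.15 and COL12A1 by 0.88. THBS1 went the other way, from 1217, 1008, 1151 and 1317 CPM to 2423, 2440.3, 2239 and 2194 CPM (0.99 ± 0.08), as did the laminin chain LAMC1 (0.92).

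Several cytokines fell, and the NF-kB factors NFKB1 and RELA, which induce many of them, rose. Of 25 tested NF-kB factors, cytokines and chemokines 9 fell, 4 rose and 12 were not called (median -0.13). Interleukin 6 (IL6) was at 29, 33.8, 25.2 and 24.4 CPM with siNS and 3.69, 3.5, 4.06 and 4.06 CPM with siYES1, a fall of 2.88 ± 0.13. IL11, of the same cytokine family, fell by 1.75, IL1A by 2.32 (1.89 to 0.371 CPM), the granulocyte factor CSF3 by 1.61 (1.39 to 0.455 CPM), IL32 by 1.23 and the prostaglandin synthase PTGS2 by 2.12. CXCL8, the neutrophil chemokine, was not called (-0.17 ± 0.18). NFKB1 and RELA rose by 0.51 and 0.31, NFKB1 from 57.5 to 81.8 CPM.

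Falls outnumbered rises among interferon and antigen presentation genes. Of 31 tested type I interferon genes 13 fell, 8 rose and 10 were not called (median -0.12), whereas 3 rose in the joint fit. The antiviral GTPases MX2 and MX1 fell by 1.73 and 0.57, ISG15 by 0.49 and IFITM1 by 0.89, while IFIT1 and HERC5 rose by 0.53 and 0.55. Of 16 antigen presentation genes 9 fell, 1 rose and 6 were not called (median -0.29). HLA-B was at 1435, 1783, 1829.8 and 1728 CPM with siNS and 1201, 1215, 1255 and 1193 CPM with siYES1 (-0.48), HLA-F fell by 1.32 and NLRC5, the activator of class I genes, by 0.83. The class I light chain B2M was not called (-0.11 ± 0.09; -0.24 and adjusted p = 0.0273 without siNS replicates 3 and 4), and the peptide trimmer ERAP1 rose by 0.53. HLA genes and IFITM1 have close copies, so their single values are uncertain.

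**Figure D4:**
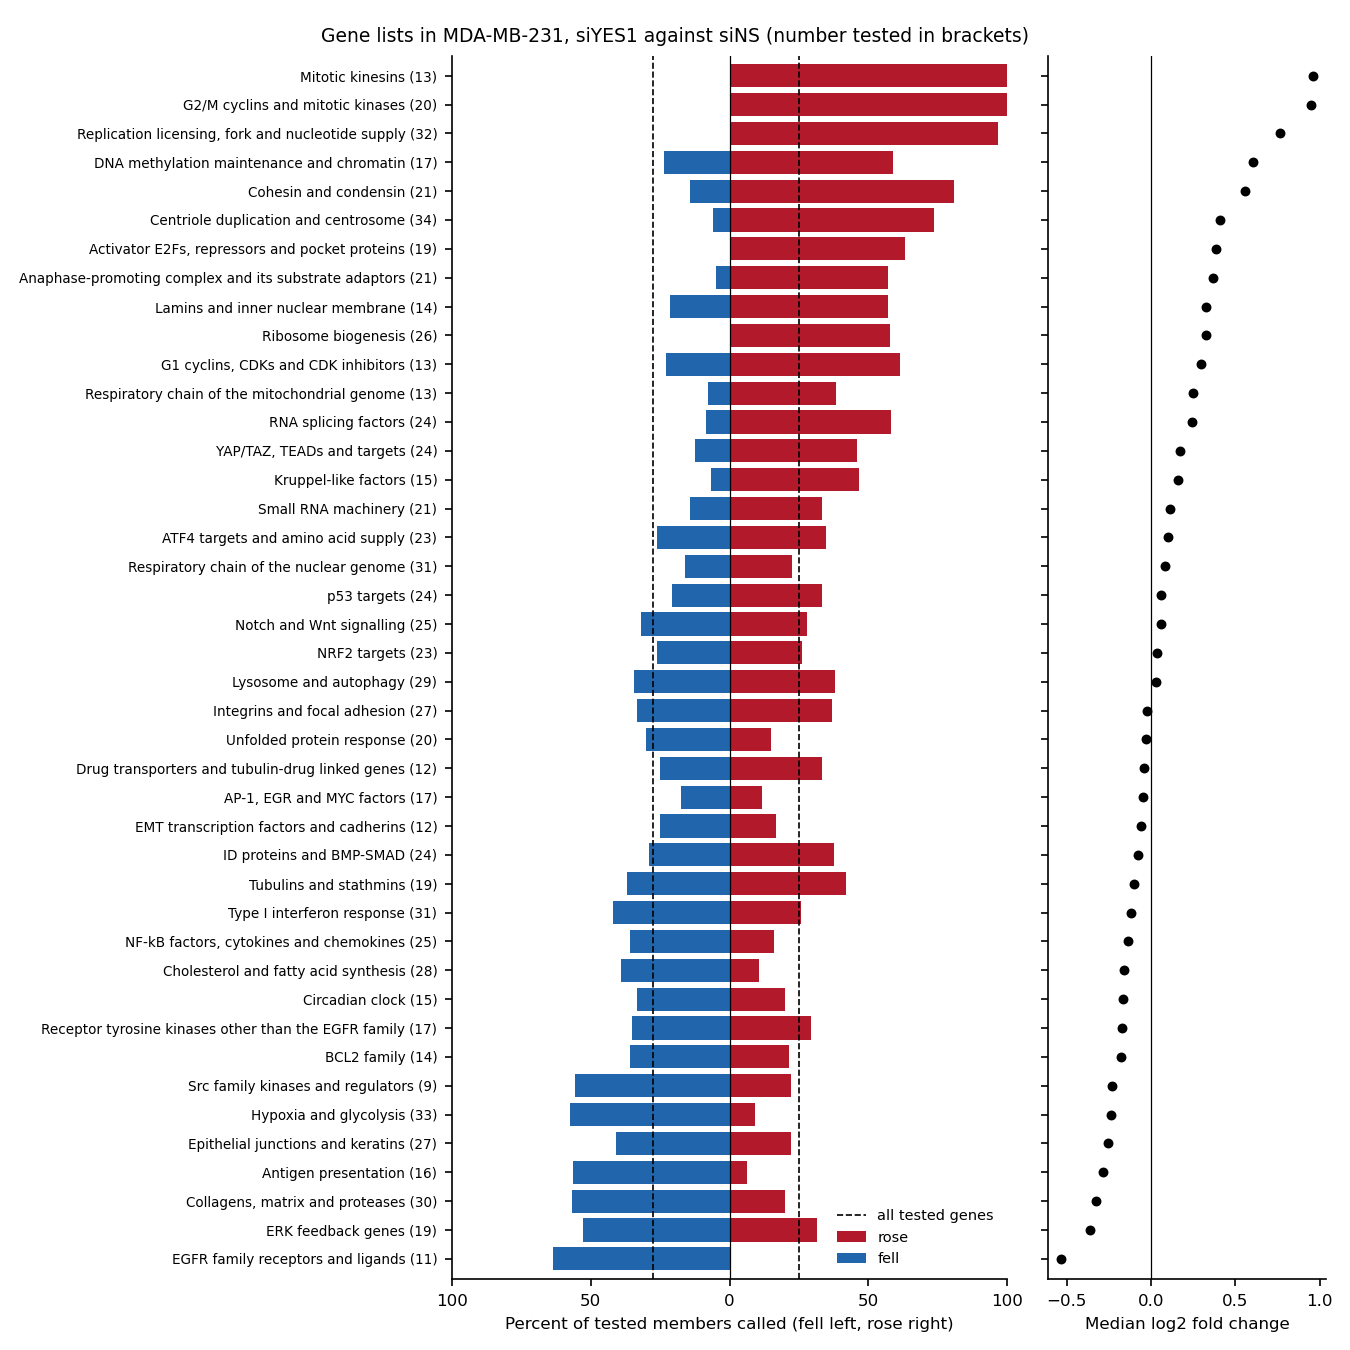
For each gene list described (number of tested members in brackets), the percent of tested members that rose (red, right) or fell (blue, left) in MDA-MB-231, with dashed lines at the shares among all tested genes (24.9% and 27.5%), and the median log2 fold change. Mitotic kinesins, G2/M genes and replication genes lie at the top with medians of 0.96, 0.95 and 0.77, and EGFR family, ERK feedback and matrix genes at the bottom.

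Most of the hypoxia and glycolysis genes fell. Of 33 tested, 19 fell, 3 rose and 11 were not called (median -0.24). HIF1A, the oxygen-regulated factor, was measured at 357, 308, 279 and 261 CPM with siNS and 170.1, 164, 164 and 167 CPM with siYES1. It fell by 0.86 ± 0.09, the angiogenic factor VEGFA by 1.14 (481 to 218 CPM), the hexokinase HK2 by 0.73 and the glucose transporter SLC2A1 by 0.46. Pyruvate kinase (PKM) rose by 0.31. Of 28 sterol and fatty acid genes 11 fell, 3 rose and 14 were not called (median -0.16; 6 rose without siNS replicate 3 and 8 without siNS replicates 3 and 4), with the desaturase SCD, which makes unsaturated fatty acids, at -0.70.

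Stress pathways showed no common direction. Of 20 unfolded protein response genes 6 fell and 3 rose (median -0.03; 5 rose without siNS replicates 1 and 2). The chaperone HSPA5 (BiP) was at 1558, 1773, 1543 and 1460.5 CPM with siNS and 903, 924, 925 and 902 CPM with siYES1 (-0.79), and the sensor EIF2AK3 (PERK) rose by 0.80. Of 23 ATF4 targets 8 rose (5 in the joint fit) and 6 fell (median 0.10, but -0.00 without siYES1 replicate 1 and -0.05 without siNS replicates 1 and 2). The serine enzymes PSAT1 and SHMT2 rose by 0.96 and 0.68, and the pseudokinase TRIB3 fell by 0.76. For lysosome and autophagy, 11 of 29 genes rose (6 in the joint fit) and 10 fell; their median was 0.03, or -0.02 when scaled by library totals. LAMP1, a lysosomal membrane protein, was at 199, 212, 220.4 and 207 CPM with siNS and 421, 439, 422 and 424 CPM with siYES1, a rise of 1.03, whereas the lysosomal transcription factor TFEB fell by 1.13 and the autophagy genes WIPI1 and ULK1 by 1.65 and 0.80. NRF2 targets were even, 6 up and 6 down of 23 (median 0.04, or -0.01 when scaled by library totals). Thioredoxin (TXN) rose by 0.72 and the ferritin chain FTL by 0.68, and the reductase AKR1C3, which has close copies, fell by 0.81.

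Genes of survival and drug response were mixed, and those called were close to the share over all tested genes (52.4%). Of 24 p53 targets 8 rose, 5 fell and 11 were not called (median 0.06), and 5 rose in the joint fit. Cyclin G1 (CCNG1) rose by 1.04, the death receptor TNFRSF10B by 0.74 and MDM2, which degrades p53, by 0.51, and the death receptor FAS and the repair protein DDB2 fell by 0.72 and 0.65. MDA-MB-231 is known to carry a mutant p53. Of 14 BCL2 family genes 3 rose and 5 fell (median -0.18). Of the protectors in it, BCL2 rose by 0.92 (5.38, 5.76, 6.3 and 4.64 CPM to 10.7, 11.3, 11.4 and 8.5 CPM) and BCL2L1 fell by 0.57 (433 to 292 CPM). Of 12 genes tied to drug response 4 rose and 3 fell (median -0.04), with 1 falling without siYES1 replicate 2, 3 or 4, with the block on replicate numbers or with no filter on low counts. The repair genes BRCA1 and BRCA2 rose by 0.99 and 1.09 and the efflux pump ABCC3 fell by 1.05.

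In the RNA and energy machinery the median changes were small. Of 26 ribosome biogenesis genes 15 rose and 0 fell (median 0.32; 1 fell without siNS replicate 3), led by DKC1, which modifies ribosomal RNA, at 1.20. Of 24 splicing factors 14 rose (8 in the joint fit) and 2 fell (1 without siYES1 replicate 3; median 0.24), with HNRNPH1 at 0.59 and HNRNPD at -0.64. Of 31 nuclear genes of the respiratory chain 7 rose and 5 fell (11 rose without siNS replicate 3). Of 13 mitochondrial ones 5 rose and 1 fell (median 0.25), with the groups overlapping in all 13. Their number risen was 9 without siNS replicate 1 or with no filter, 11 without siNS replicates 1 and 2, 0 without siNS replicates 3 and 4, 2 without siNS replicate 4 or in the joint fit, 1 without siYES1 replicate 4 and 3 with library totals. MT-ND2 rose by 0.39 and MT-ND6, on the other strand, fell by 0.44. MT-ND2 was at 834, 679.9, 641 and 616 CPM with siNS and 830.1, 854, 860.3 and 1090.4 CPM with siYES1, and its call ended without siNS replicates 3 and 4 (adjusted p = 0.0616). Of 21 genes of small RNA function 7 rose and 3 fell (median 0.11), and the deadenylase subunit PAN2 rose by 1.08. Of 15 clock genes 3 rose (5 without siNS replicates 1 and 2) and 5 fell (3 in the joint fit; median -0.16), with PER2 at 0.99, ARNTL (BMAL1) at -0.47 and its target DBP at -0.73.

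Outside the lists, the largest rises of coding genes that averaged at least 5 CPM and did not overlap included the cytidine deaminase APOBEC3B (1.98 ± 0.10). It was at 12.9, 11.5, 10.9 and 9.32 CPM with siNS and 41, 44.4, 43.3 and 48.2 CPM with siYES1, and its family has close copies. Annexin A1 (ANXA1), an anti-inflammatory phospholipid binder, rose by 1.95 ± 0.07, from 160.2 ± 12 to 619.6 ± 25.4 CPM. The lipid phosphatase MTMR6 rose by 1.96, the ribosomal protein copy RPS27L by 1.90, the splicing regulator MBNL1 by 1.74 and the vesicle protein SYPL1 by 1.74. The largest falls included PRSS2, a trypsin, from 260.3, 296, 189 and 229.9 CPM to 40.1, 42.3, 38.7 and 42 CPM (-2.58). FBXW4 fell by 2.68, the secreted ISM1 by 2.88, the amino acid exchanger SLC7A7 by 2.70, the ectonucleotidase ENTPD3 by 2.71 and the thrombin receptor F2RL3 (PAR4) by 2.56. Among the called genes with the most reads, HSP90AA1 rose by 0.80 (1537 to 2679 CPM), the actin ACTG1 by 0.63 and the giant scaffold AHNAK by 0.83.

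Long noncoding genes were called less often than the 24.9% (rose) and 27.5% (fell) of all tested genes. Of 461 intergenic ones 72 rose (15.6%) and 100 fell (21.7%), at a median level of 1.60 CPM. Of 524 antisense ones 85 rose (16.2%) and 89 fell (17.0%), at a median level of 1.34 CPM. AL713998.1 was at 0.593, 0.264, 0.744 and 0.412 CPM with siNS and 6.36, 6.71, 6.38 and 6.5 CPM with siYES1, the largest noncoding rise among those at 1 CPM or more (3.67 ± 0.23). AC037198.1, which lies inside THBS1 on the same strand, rose by 2.46, and THBS1 itself by 0.99. DLEU2 rose by 1.68. HCP5, in the HLA class I region, fell by 2.02, from 37, 40, 44.2 and 40.6 CPM to 10.9, 9.04, 9.88 and 10.1 CPM, and LINC01929 fell by 2.16. Whether the counting used the strand is not given in the sources used here. Antisense and overlapping genes cannot be told from their partners.

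The response of SUM159PT to siYES1 differed at many genes. The titles name that line SUM159PT while its column names begin with S149, so its identity rests on the titles. The knockdown differed too: YES1 changed by -2.96 ± 0.14 in SUM159PT against -2.20 in MDA-MB-231, with a difference of -0.66 ± 0.17 in the joint fit (edgeR interaction, adjusted p = 0.00657). Here and below, fold changes come from separate fits of each line and differences from the 16 libraries together. A difference is therefore not the exact subtraction of the printed fold changes. A line by siRNA interaction, fitted to the 16 libraries together, was called in 3953 of 16299 tested genes (24.3%), 2511 with a higher and 1442 with a lower effect in SUM159PT. With library totals as the scaling the same counts were 1375 and 2795, and the median difference over all genes moved from 0.03 to -0.19, so the split follows the scaling. On the scale of the joint fit ID3 went from 9.54 to 65.8 CPM in MDA-MB-231, while SUM159PT had 147 CPM with siNS and 145 with siYES1. The difference, SUM159PT minus MDA-MB-231, was -2.81 ± 0.19 (edgeR adjusted p = 1.79e-09). ATOH8 had a difference of -2.36 in the same sense. The transcription factor NFE2L3 rose by 1.60 in MDA-MB-231 and fell in SUM159PT (log2 fold change -0.88 ± 0.23), a difference of -2.38 ± 0.19.

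Other genes fell in MDA-MB-231 and rose in SUM159PT. ABI3BP, a matrix protein, had log2 fold changes of -3.00 and 0.63 (difference 3.73 ± 0.23), WIPI1 -1.65 and 0.89 (difference 2.63) and the carboxypeptidase CPA4, shown above for its AP-1 sites, -1.92 and 0.51 (difference 2.52 ± 0.11). CPA4 was at 241, 238, 209 and 258 CPM in the siNS libraries of MDA-MB-231 and 59.3, 61.8, 62.8 and 66.6 CPM in its siYES1 libraries. STC1, CRISPLD2 and TUBA1A fell in MDA-MB-231 by 2.11, 1.88 and 2.84 and were not called in SUM159PT, with differences of 2.33, 2.38 and 2.61. In the opposite sense, IGFBP4, which binds insulin-like growth factors, was not called in MDA-MB-231 (0.06 ± 0.08; 0.20 and adjusted p = 0.0484 without siNS replicates 3 and 4) and fell by 2.23 log2 units in SUM159PT, and PLEKHA6 rose by 0.45 and fell by 2.93 (differences -2.20 and -3.28).

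**Figure D5:**
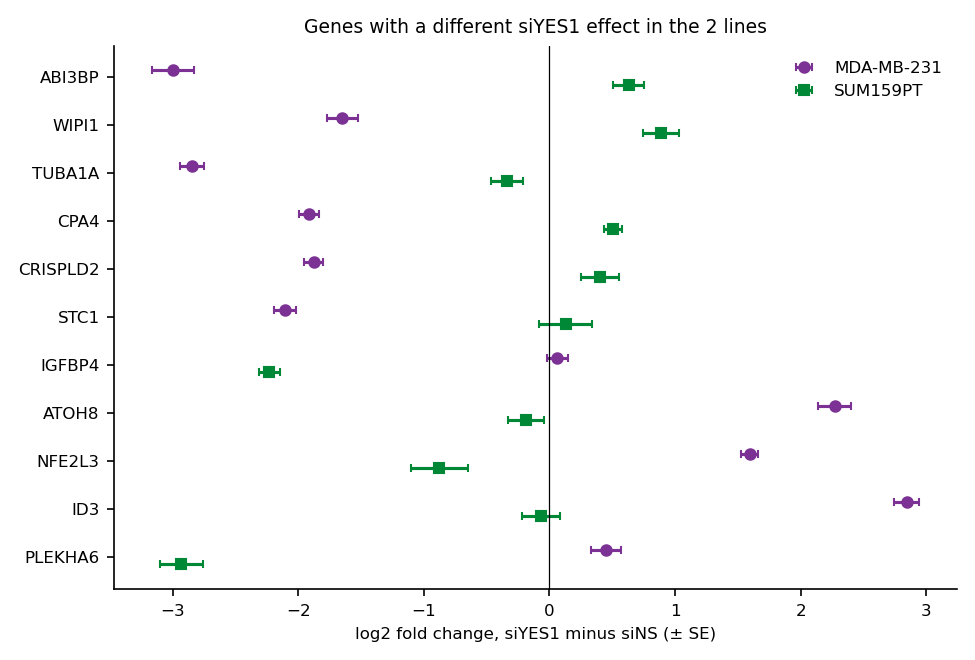
Log2 fold change (siYES1 minus siNS, ± SE, each line fitted on its own 8 libraries) of the 11 genes described for their difference, MDA-MB-231 as purple circles and SUM159PT as green squares. ABI3BP lies at -3.00 (MDA-MB-231) and 0.63 (SUM159PT), ID3 at 2.84 and -0.07.

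By group, many replication genes differed between the lines. Of 32 tested in the interaction, 19 had a higher effect in MDA-MB-231 and 0 in SUM159PT, with a median difference of -0.86. The list's median log2 fold change, 0.77 in MDA-MB-231, stood at -0.28 in SUM159PT, each line fitted on its own libraries. Libraries of a group differed more in SUM159PT, with a common coefficient of variation in edgeR of 0.165 against 0.0988 in MDA-MB-231. Without SUM159PT siNS replicate 1, left out as a check, 18 were called and the median difference was -0.60. The median of -0.28 includes that library, and no SUM159PT median without it was computed, so its sign is uncertain. Of 20 G2/M genes 3 had a higher effect in MDA-MB-231 and 1 a lower one, near the share over all genes, and without that library it was 3 and 4. Of 13 kinesins 1 had a higher effect in MDA-MB-231 and 0 a lower one (4 and 0 with library totals). Hypoxia and glycolysis genes had the opposite difference, with 21 of 33 lower in MDA-MB-231, 2 higher and a median difference of 0.57 (23, 2 and 0.46 without that library, and 13, 3 and 0.36 with library totals). Of 20 unfolded protein response genes 12 were lower in MDA-MB-231 and 0 higher (9 and 0 without that library, 7 and 0 with library totals).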

How the data were processed

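Polyadenylated RNA of 16 libraries was sequenced, 4 for each pair of line and siRNA, and the 8 of MDA-MB-231 were described here. The authors deposited a table of raw counts per gene. Per the submitters' processing notes, HISAT2 2.0.5, featureCounts 1.5.0-p3 and the build hg38 were used. Alignment settings, strand setting and annotation release are not stated in them. Symbols and GRCh38 positions came from GENCODE 29 (Ensembl 94), where each of the 58735 gene IDs had a match.

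From the deposited counts, edgeR 4.0.16 (R 4.3.3) was run with its default low-count filter, TMM scaling and the quasi-likelihood test, on the 8 libraries of MDA-MB-231 alone. Genes with a Benjamini-Hochberg adjusted p under 0.05 over all tested genes were called. SE was derived from the test, as the absolute log2 fold change divided by the square root of its F statistic. The line by siRNA interaction was fitted on all 16 libraries. Data were simulated with the depth of these libraries and, within a line, the same mean for both siRNAs, except for 50 genes changed at each fold. The main test recovered 28%, 80%, 98% and 100% of the genes changed by 1.25, 1.5, 2 and 4-fold. It called 10 unchanged genes, among 14319 genes in all. The interaction recovered 6%, 4%, 66% and 92% and called 9 unchanged genes, among 16299 in all. In the real data 52.4% of tested genes were called, so these recoveries and false calls do not carry over to it.

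The libraries, the 43 gene lists and the tests were chosen with earlier results of these data known. The lists held 967 genes, of which 910 were tested. Named genes were YES1, the Src family list, in each list up to 4 called genes of the largest absolute change at a mean of 5 CPM or more together with its first and best known members, the 15 largest rises and falls among coding genes without overlap, the 8 largest among noncoding genes, the 20 called coding genes of the highest level and the 10 largest differences between lines of each sign, from which the text gives a selection. Replicate numbers did not pair the libraries. Alternatives were other scalings, filters and tools (DESeq2 1.42.0, limma 3.58.1), a replicate block, a joint fit, a 1.5-fold threshold and leaving out libraries. Some genes and 1 list are not reported here.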

Additional observations from a re-analysis of the deposited data

Results flagged for a closer look

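Among 468 groups of 4 libraries, 19 (4.06%) held 1 library whose gap to its nearest neighbour exceeded Dixon's 95% limit for 4 values, and chance gives about 1 in 20. Among the siNS libraries, replicate 1 stood out for STAG2 (121 CPM, the others 93.2 to 95.4) and CDH11 (242.7 CPM, 211.4 to 214.2). Replicate 2 of siNS stood out for CDC26 (26.1 CPM, 17.3 to 18.2) and TNS3 (253 CPM, 314 to 317), and replicate 3 for KIFC1 (123.5 CPM, 93.3 to 97.5) and NCAPD2 (156 CPM, 126 to 131). Replicate 4 of siNS stood out for CDK1 (61.8 CPM, 83.2 to 86.6), NCAPG (50.8 CPM, 63.8 to 65.2), TUBA1B (439.9 CPM, 462.8 to 466.6) and NLRC5 (77.0 CPM, 60.6 to 63.3).

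With siYES1, replicate 1 stood out for NEK2 (68.4 CPM, the others 73.2 to 73.4), and replicate 2 for ESCO1 (22.0 CPM, 23.0 to 23.1), MAU2 (63.6 CPM, 55.1 to 56.5) and LAMP1 (439 CPM, 421 to 424). Replicate 3 stood out for CCNE1 (17.9 CPM, 20.2 to 20.7). Replicate 4 stood out for FOSL1 (526.5 CPM, 492.3 to 497.1), MDM2 (44.3 CPM, 44.8 to 44.9), MT-ND2 (1090 CPM, 830.1 to 860.3) and the mitochondrial share of all counts (1.79%). MT-ND2 and that share move together by construction, since MT-ND2 is part of it. Leaving out the library that stood out ended none of these genes' calls.

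There were 11 genes named for a difference between the lines (siYES1 minus siNS in SUM159PT, minus the same in MDA-MB-231; edgeR interaction). The difference was above 0 for ABI3BP (3.73), WIPI1 (2.63), TUBA1A (2.61), CPA4 (2.52), CRISPLD2 (2.38) and STC1 (2.33), and below 0 for PLEKHA6 (-3.28), ID3 (-2.81), NFE2L3 (-2.38), ATOH8 (-2.36) and IGFBP4 (-2.20). All 11 were called in each fit of the interaction that was run.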

How the results depend on the processing

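The count of called genes lay between 6725 and 7753 when 1 MDA-MB-231 library was left out, with 3149 to 3756 risen and 3572 to 3997 fallen. With RLE scaling it was 7526, with library totals 7461 (41.6% of them rises, against 47.6%), with DESeq2 7476 and with limma-voom 7499. The joint fit of 16 libraries called 2230 as risen, and a test against a 1.5-fold change called 1770 genes, 607 risen and 1163 fallen. With the replicate block 7109 genes were called, 7035 of them also without it, and it ended no call of a named gene. Same-numbered libraries did not deviate together (correlations of 0.03, -0.12, -0.05 and -0.10), and 1 of 4 siNS libraries correlated best with its own number. With the block in the interaction 3545 genes were called. Leaving out 1 library gave 3349 to 4495 interaction calls (2182 to 2771 higher in SUM159PT and 1167 to 1744 higher in MDA-MB-231), and library totals gave 1375 and 2795.

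Of 220 called genes named in the text or kept for it, 6 lost their call under at least 1 setting, 6 uncalled ones gained one and 0 reversed; the 1.5-fold threshold was run for the counts of all genes only. Of 774 list medians under other settings 50 moved by more than the spread between libraries of a group, and 3 changed sign where the median itself exceeded that spread: ATF4 targets (-0.00305 to 0.104 when 1 library was left out, the lowest without siYES1 replicate 1, and -0.0513 without siNS replicates 1 and 2) and receptor tyrosine kinases (0.0662 without siNS replicates 3 and 4). Smaller medians that changed sign, such as those of lysosome genes and NRF2 targets, are not among the 3. The settings that leave out 2 siNS libraries were added after seeing the data. The causes were not tested. Depth limits genes under 1 CPM, of which 9.84% rose and 20.3% fell.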
